A study of Rattus norvegicus with 18 samples.

Results

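Cultures that received extracellular vesicles before glutamate were compared with cultures that received the other secreted preparations of the same progenitor cells. The groups were chosen by sample title. Glutamate_vesicles (3 libraries) was set against the 6 libraries of Glutamate_secret and Glutamate_BPC pooled, with the replicate number as a block, so that 9 of the 18 libraries of the series entered the comparison. All 9 came from primary neuroglial cultures of the cortex of newborn rats, used on day 10 in vitro. Each was exposed to 100 µM glutamate, and RNA was collected 4 h after the glutamate exposure had ended. The preparations were secreted by glial progenitor cells that had been derived from human induced pluripotent stem cells, and they were added on the day before glutamate. The cultures had been treated with cytosine arabinoside, which limits the growth of dividing glia. The other groups were untreated Control, Glutamate alone and Memantine, in which glutamate was given with an antagonist of NMDA receptors as positive control. The design text names a protein fraction and the total secretome beside the vesicles, but the labels do not say which of them Glutamate_secret and Glutamate_BPC received. The total secretome is not stated to be free of vesicles, so that the pooled groups are called here by their label names only.

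Extracellular vesicles are membrane-enclosed particles that cells release and that carry membrane proteins, cytosolic proteins and RNA. Vesicles can fuse with or be taken up by recipient cells, whereas free secreted proteins act mainly through receptors on the cell surface. In a mixed cortical culture the recipients can be neurons, astrocytes, oligodendrocyte lineage cells and microglia. Excess glutamate opens calcium-permeable receptors on neurons, and the ensuing calcium load can damage the plasma membrane and the mitochondria.

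Total counts ranged from 9235035 to 17206342 in the 9 libraries, and between 15223 and 17341 rows had a count. The share of ribosomal RNA (rRNA) was 5.28% to 13.4% in Glutamate_vesicles and 3.04% to 26.6% in the pooled groups (Wilson 95% interval 3.034% to 3.051% for the lowest library and 26.59% to 26.65% for the highest, counting error only). The vesicle libraries lay within the range of the others. The first principal component of the 9 libraries held 68.7% of the variance and did not separate the groups. Libraries of numbers 1 and 2 deviated from their group means in the same way across groups (Pearson r over genes 0.42 to 0.83). Among the libraries of number 3, Glutamate_secret 3 and Glutamate_BPC 3 also deviated together (r = 0.56), but Glutamate_vesicles 3 did not, with r = -0.17 to Glutamate_secret 3 and -0.25 to Glutamate_BPC 3. The rRNA share in these 3 libraries was 6.6%, 26.6% and 20.1%. The replicate number therefore stands for no deviation that Glutamate_vesicles 3 shares, and values are given with the block and, where it matters, without it.

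The comparison asks whether cultures under glutamate differ in gene expression after vesicles and after the other preparations. No gene among 14398 met a Benjamini-Hochberg adjusted p below 0.05 in edgeR's quasi-likelihood test (0 called, 0%), where the lowest adjusted value was 0.71. Before adjustment, 437 genes (3.04%) had a p below 0.05, 260 (1.81%) with higher and 177 (1.23%) with lower levels after vesicles. With a fold change above 1.5 as well, 427 genes were counted (2.97%), 251 (1.74%) higher and 176 (1.22%) lower. The median standard error (SE) of a log2 fold change was 0.377, so that differences of the size of the median absolute log2 fold change, 0.344, could not be resolved in single genes at this replication. The likelihood-ratio test of edgeR called 4 genes, H19, Igf2, Lat2 and a row with the transcript identifier ENSRNOT00000107321. DESeq2 called H19 alone. With the criterion that adds the fold change, DESeq2 counted 280 genes higher and 450 lower, so that the direction of the majority was opposite to that of the main fit.

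The count of 427 depended on single libraries. It was 80 without Glutamate_vesicles 3 and 175 without Glutamate_secret 3. It was 230 without Glutamate_BPC 2 and 245 without Glutamate_BPC 3. It was 1472 without Glutamate_BPC 1 and 1463 without Glutamate_secret 2. Without the replicate block it was 67. With numbers 1 and 2 alone, a choice made after the data were seen, it was 66. The plot of counts by setting shows these values side by side.

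**Figure D1:**
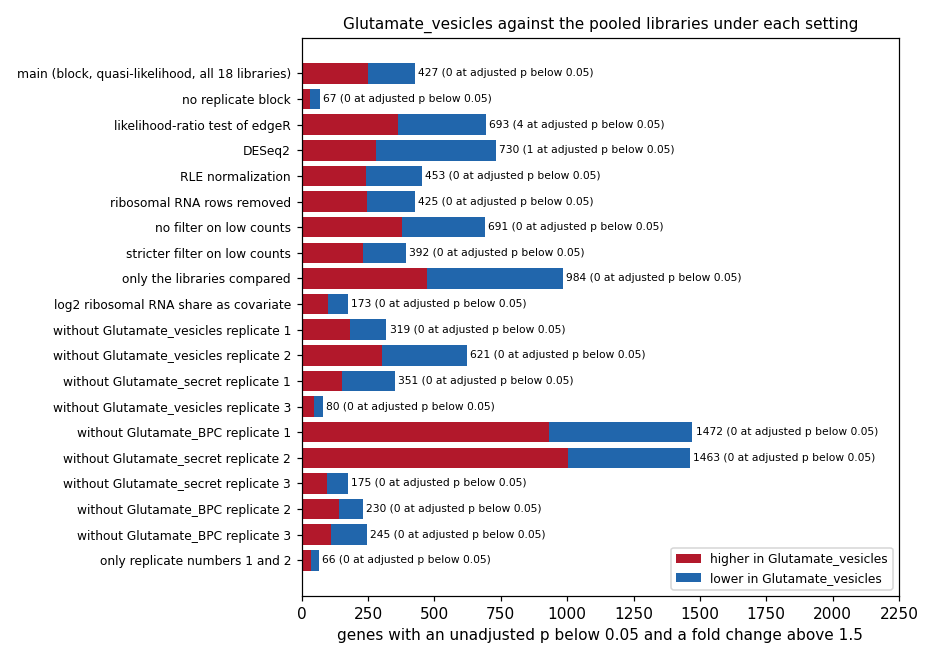
Number of genes with an unadjusted p below 0.05 and a fold change above 1.5 (x axis) for Glutamate_vesicles against the pooled Glutamate_secret and Glutamate_BPC libraries under each setting (y axis). Red parts of the bars are genes higher and blue parts genes lower in Glutamate_vesicles. The count runs from 66 to 1472, with 427 in the main fit.

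Taken separately, the pooled groups gave 0 called genes each in the quasi-likelihood test, and DESeq2 called 1, H19, against Glutamate_secret. The criterion with the fold change counted 540 genes (3.75%) against Glutamate_secret, 211 (1.47%) of them higher in Glutamate_vesicles, and 296 (2.06%) against Glutamate_BPC, 142 (0.986%) of them higher. Against Glutamate_secret the count was 2060 without Glutamate_secret 2 and 69 without Glutamate_secret 3. Against Glutamate_BPC it was 982 without Glutamate_BPC 1 and 100 without Glutamate_vesicles 3. Both comparisons use the same 3 vesicle libraries. Glutamate_BPC against Glutamate_secret gave 0 called genes and 177 by that criterion (1.23%). In CPM, the count of a gene scaled to a common library size after TMM normalisation, all 3 vesicle libraries lay above all 6 others for 62 genes (0.431%) and below them for 51 genes (0.354%).

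The genes described next were named by a rule that takes the 12 genes with the smallest p on each side of this contrast. Their p values therefore describe them and add no support, and each had an adjusted p of 0.71 in the quasi-likelihood test. The CPM values show which libraries carry each difference.

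**Figure D2:**
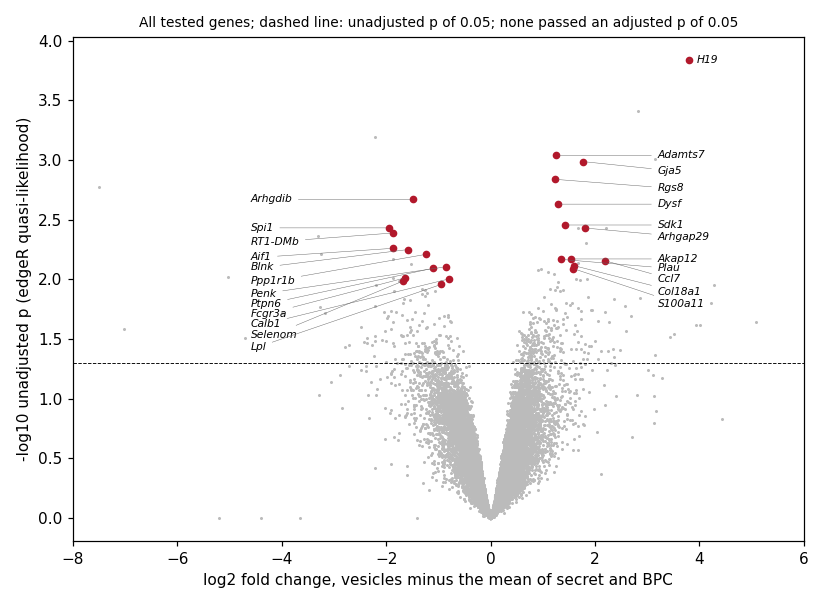
Log2 fold change between Glutamate_vesicles and the mean of Glutamate_secret and Glutamate_BPC (x axis) against -log10 of the unadjusted p of the edgeR quasi-likelihood test (y axis) for 14398 genes in grey. The 24 genes named by rule are in red, and the dashed line marks an unadjusted p of 0.05. H19 stands highest, and no gene had an adjusted p below 0.71.

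Gja5 encodes connexin 40, a gap junction protein best known from arterial endothelium and the conduction system of the heart. Its level was 22.8, 14.0 and 18.7 CPM in Glutamate_vesicles 1 to 3, 3.15, 4.38 and 3.26 CPM in Glutamate_secret 1 to 3, and 8.06, 10.0 and 3.15 CPM in Glutamate_BPC 1 to 3. All 3 vesicle libraries were above all 6 others. The mean was 18.5 ± 4.42 CPM (SD, n = 3) with vesicles, 3.47 times that of the pooled libraries, and the log2 fold change was 1.78 with an SE of 0.45 (unadjusted p = 0.00103 in edgeR). The log2 fold change was 2.27 (SE 0.56) against Glutamate_secret and 1.30 (SE 0.54) against Glutamate_BPC. Within replicate numbers 1, 2 and 3 the log2 differences were 2.14, 1.06 and 2.49. Leaving out each library in turn gave log2 fold changes of 1.53 to 2.10, and without the block it was 1.87. These fits share most libraries with the fit that named Gja5, so they show the spread and add no support. The groups without a preparation had lower levels, at most 2.20 CPM in Glutamate, 0.862 CPM in Memantine and 0.70 CPM in Control.

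The other connexins and the pannexins were examined beside Gja5, which was named with earlier results of these data known. Of 21 genes on the gap junction list, 9 passed the filter on low counts. Gja5 was the only member with an unadjusted p below 0.05 (11.1%, beside 1.81% of all genes), and its own p adds no support. The median log2 fold change of the 9 was 0.12, beside 0.03 over all genes. Gja1, connexin 43, the main connexin of astrocytes, was at 51.4, 161 and 92.9 CPM in Glutamate_vesicles and at 34.0 to 185 CPM in the pooled libraries, which overlapped fully. Its log2 fold change was 0.25 (SE 0.36, unadjusted p = 0.50 in edgeR). The remaining 7 tested members had log2 fold changes from -0.28 in Gjb1 to 0.50 in Gjd2, and the 12 that failed the filter had at most 28 counts each over the 9 libraries.

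Because Gja5 is best known from endothelium, the endothelial marker list was examined beside it. Of 20 markers, 5 could be tested, and 0 of these had an unadjusted p below 0.05 in either direction (median log2 fold change -0.48). Summed over all members with a row in the files, the level was 7.38 to 11.2 CPM in Glutamate_vesicles, 10.7 to 16.3 CPM in Glutamate_secret and 6.79 to 17.4 CPM in Glutamate_BPC. Cdh5, which encodes the adhesion molecule of endothelial junctions, had 49 counts in all 9 libraries together and Kdr, a receptor for vascular endothelial growth factor, had 26. Of the members that failed the filter, none had more than 56 counts over the 9 libraries. Flt1, another receptor for vascular endothelial growth factor, had 23 counts in the 3 vesicle libraries and 22 in the 6 others, and Cdh5 had 18 and 31. The part of endothelial cells in the level of Gja5 was not tested.

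Dysf encodes dysferlin, a membrane protein that takes part in calcium-dependent resealing of the plasma membrane. It was measured at 58.4, 35.8 and 79.1 CPM in Glutamate_vesicles 1 to 3, at 20.3, 40.6 and 15.7 CPM in Glutamate_secret 1 to 3, and at 23.9, 21.4 and 21.5 CPM in Glutamate_BPC 1 to 3. Glutamate_vesicles 2 lay below Glutamate_secret 2, so that the groups overlapped in a single pair of libraries. The log2 fold change was 1.29 (SE 0.36, unadjusted p = 0.00234 in edgeR). It was 1.19 (SE 0.44) against Glutamate_secret and 1.40 (SE 0.43) against Glutamate_BPC. Within numbers 1, 2 and 3 the log2 differences were 1.40, 0.28 and 2.10. The sign was the same without each library in turn, and the estimate was 0.86 without Glutamate_vesicles 3 and 0.82 with numbers 1 and 2 alone. In Control, Dysf was at 3.71 to 7.11 CPM, and in Glutamate at 7.49 to 12.5 CPM.

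The membrane repair list, which joins dysferlin with annexins, S100 proteins, caveolins and calpains, had 25 of 30 genes tested. Of these, Dysf and S100a11 had an unadjusted p below 0.05 and were higher in Glutamate_vesicles (8.0% of those tested, beside 1.81% of all genes), and 0 were lower. With numbers 1 and 2 alone, 0 members had such a p. The median log2 fold change was 0.25. S100a11 encodes a calcium-binding partner of annexins. Its level was 34.7, 3.41 and 24.3 CPM in Glutamate_vesicles and 2.72 to 10.1 CPM in the pooled libraries, so that Glutamate_vesicles 2 did not share the higher level. Myof, the closest relative of dysferlin on the list, had a log2 fold change of 0.95 (SE 0.55, unadjusted p = 0.0992 in edgeR). Anxa1, Anxa2 and Anxa6, annexins that bind membranes in the presence of calcium, had log2 fold changes of 0.02, 0.25 and 0.02.

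Ccl7 and Ccl2 encode chemokines that attract monocytes. Ccl7 was at 44.1, 19.7 and 109 CPM in Glutamate_vesicles 1 to 3, at 13.4, 6.72 and 6.15 CPM in Glutamate_secret, and at 14.0, 14.6 and 3.04 CPM in Glutamate_BPC. All vesicle libraries were above all others. Its log2 fold change was 2.19 (SE 0.71, unadjusted p = 0.00697 in edgeR), with 1.60 without Glutamate_vesicles 3. Ccl2 was at 95.3, 83.3 and 386 CPM in Glutamate_vesicles and between 12 and 58.5 CPM in the 6 others, again without overlap. Its log2 fold change was 2.05 (SE 0.81, unadjusted p = 0.0222). Glutamate_vesicles 3 had the highest level of both, and without it the log2 fold change of Ccl2 was 1.38 with an unadjusted p of 0.122 in edgeR. Glutamate 1, a library without any preparation, had Ccl2 at 84.5 CPM and Ccl7 at 27.4 CPM, near the lower values after vesicles.

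Of the inflammatory and NF-kB list, 21 of 28 genes were tested. Ccl2 and Ccl7 had an unadjusted p below 0.05 with a higher value (9.52%, beside 1.81% of all genes), and Ccl3, a macrophage chemokine named after its values were seen, had one with a lower value (4.76%, beside 1.23%; log2 fold change -1.43, SE 0.62, unadjusted p = 0.0341 in edgeR). The median of the list was 0.17, and 11 members had positive and 10 negative values. With numbers 1 and 2 alone, 0 members had an unadjusted p below 0.05 in either direction, and the median was 0.01. It was -0.18 once the log2 rRNA share was added to the model.

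Promoter sequences are shown for 3 of the genes whose levels did not overlap between the groups and in which a searched motif was found. They run from 250 bases before to 50 after the start site, were taken from RefSeq (assembly GRCr8), and are printed 5′ to 3′ on the gene's strand. Capitals mark matches on either strand to TGANTCA, the motif of AP-1 factors, to GAGGAAGT, a motif of the factor PU.1 (encoded by Spi1), or to TATAAA.

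Gja5, chr2:187290977-187291276 (+ strand): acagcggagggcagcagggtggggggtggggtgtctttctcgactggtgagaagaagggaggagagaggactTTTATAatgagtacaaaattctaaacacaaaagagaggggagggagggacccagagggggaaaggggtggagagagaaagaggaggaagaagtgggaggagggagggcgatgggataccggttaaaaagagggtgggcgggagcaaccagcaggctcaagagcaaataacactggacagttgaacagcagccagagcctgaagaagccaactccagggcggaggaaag

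Ccl7, chr10:67513845-67514144 (+ strand): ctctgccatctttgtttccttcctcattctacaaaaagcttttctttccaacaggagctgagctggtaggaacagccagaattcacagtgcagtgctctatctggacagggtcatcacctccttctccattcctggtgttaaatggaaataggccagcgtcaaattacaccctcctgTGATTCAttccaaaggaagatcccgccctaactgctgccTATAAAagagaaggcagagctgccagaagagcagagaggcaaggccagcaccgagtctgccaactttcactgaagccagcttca

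Fcgr3a, chr13:85782386-85782685 (+ strand): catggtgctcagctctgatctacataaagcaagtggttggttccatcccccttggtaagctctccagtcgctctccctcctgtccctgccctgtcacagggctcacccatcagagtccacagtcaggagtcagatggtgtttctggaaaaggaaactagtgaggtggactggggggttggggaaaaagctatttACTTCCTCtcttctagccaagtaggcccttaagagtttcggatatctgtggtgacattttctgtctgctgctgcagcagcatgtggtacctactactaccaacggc

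In Ccl7 an AP-1 match began 73 bases before the start site and a TATAAA match 34 bases before it. Gja5 had a TATAAA match on the opposite strand 178 bases upstream. Fcgr3a, one of the genes with lower values, had a PU.1 match on the opposite strand 56 bases upstream. Adamts7, whose groups did not overlap either, had a TATAAA match on the opposite strand 18 bases upstream, and its sequence is not shown. Of the 12114 windows of genes tested here, 4.75% held the AP-1 motif, 2.34% the PU.1 motif and 7.08% TATAAA. Over all 33469 windows of the table the shares were 7.33%, 2.42% and 14.2%. Windows were found for 15 of the 24 genes named by rule. Among 11 genes with higher values, 1 held the AP-1 motif, 0 the PU.1 motif and 3 TATAAA. Among 4 with lower values these numbers were 0, 1 and 0. Windows were also found for 8 of the 14 microglial markers. Of these 8, 2 held the AP-1 motif, 0 the PU.1 motif and 0 TATAAA. The motifs were searched as letters only, and binding was not measured.

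H19, an imprinted long non-coding RNA, and Igf2, the imprinted growth factor gene beside it, had the smallest p values of the comparison. H19 was at 126, 1.77 and 51.2 CPM in Glutamate_vesicles 1 to 3, and between 1.11 and 6.73 CPM in the pooled libraries. Glutamate_vesicles 1 and 3 stood far above every other library, and Glutamate_vesicles 2 lay among them. Igf2 had the same order, with 6.68, 0.401 and 5.01 CPM in Glutamate_vesicles and 0.177 to 0.906 CPM in the others. The low levels of Igf2 rest on few counts, and its mean log2 CPM over the 9 libraries was -0.06. In Glutamate, for instance, 0.381 to 0.486 CPM came from 3 to 6 counts per library. The log2 fold change of H19 was 3.80 (SE 0.77), and it was 2.39 without Glutamate_vesicles 1. That of Igf2 was 2.82 (SE 0.63). The adjusted p of H19 was 0.71 in the quasi-likelihood test, 0.0171 in the likelihood-ratio test and 0.0026 in DESeq2, and for Igf2 it was 0.71, 0.0483 and 0.132.

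In Rgs8, Adamts7 and Sdk1 the groups did not overlap. Rgs8, a regulator of G protein signalling, was at 12.3, 15 and 12.1 CPM in Glutamate_vesicles and at 2.84 to 7.43 CPM in the pooled libraries. The log2 differences within numbers 1, 2 and 3 were 1.38, 1.42 and 1.08 (log2 fold change 1.24, SE 0.32). Memantine 2 reached 11.8 CPM and Glutamate 2 reached 9.84 CPM. Adamts7, a secreted metalloprotease, was at 14.7, 22.2 and 23.2 CPM with vesicles and at 5.51 to 11 CPM in the others (log2 fold change 1.26, SE 0.31). Sdk1, an immunoglobulin-type cell adhesion molecule, was at 5.78, 7.58 and 8.89 CPM against 0.976 to 5.35 CPM (1.42, SE 0.41). Arhgap29, a protein that inactivates small GTPases, and Akap12, a scaffold for protein kinases, differed by 1.81 (SE 0.53) and 1.55 (SE 0.50) on the log2 scale, and the ranges of both groups overlapped. Akap12 was at 161 CPM in Glutamate_vesicles 2 and at 23.4 CPM in Glutamate_vesicles 1.

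**Figure D3:**
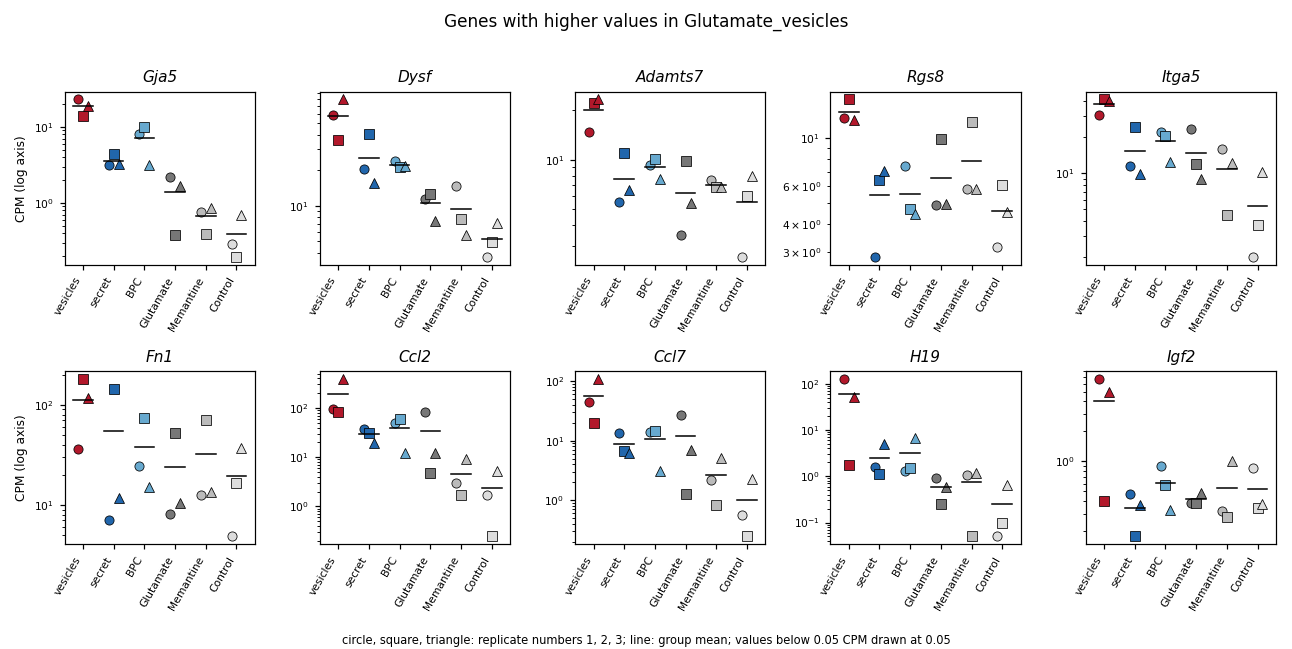
CPM on a log axis in all 18 libraries for 10 genes with higher values in Glutamate_vesicles (red) than in Glutamate_secret and Glutamate_BPC (blue), with the groups without a preparation in grey. Symbols give the replicate number and lines the group mean. Gja5, Adamts7, Rgs8, Itga5, Ccl2 and Ccl7 show no overlap between the red and the blue points, while H19 and Igf2 are low in Glutamate_vesicles 2.

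Genes of the extracellular matrix formed the list with most members of an unadjusted p below 0.05 by count, but not by share. The share with higher values was larger in the oligodendrocyte lineage list (15.4%) and the gap junction list (11.1%). Of the microglial markers, 14.3% had lower values, beside 1.23% of all genes. Of 37 tested, 4 were higher (10.8%, beside 1.81% of all genes) and 0 lower, the median log2 fold change was 0.49, and 28 had positive values. The summed level of the list overlapped, at 3938 to 6512 CPM in Glutamate_vesicles (median 4028), 3291 to 5930 CPM in Glutamate_secret (median 4450) and 3994 to 4495 CPM in Glutamate_BPC (median 4231). Fn1, fibronectin, was at 35.9, 181 and 118 CPM in Glutamate_vesicles, at 7.09, 144 and 11.8 CPM in Glutamate_secret, and at 24.6, 73.1 and 15 CPM in Glutamate_BPC. Its level was highest in number 2 of each group, so that the groups overlapped although each vesicle library was above its number's other libraries. The log2 fold change was 1.63 (SE 0.56), with 1.43, 0.82 and 3.14 within numbers 1, 2 and 3. Without the block the unadjusted p was 0.181 in edgeR. Col5a1, a fibrillar collagen chain, had a log2 fold change of 1.33 (SE 0.47). Tnc (tenascin C) and Postn (periostin), both named after their values were seen, had 1.27 (SE 0.54) and 2.07 (SE 0.96). Without the replicate block 0 members had an unadjusted p below 0.05, and without Glutamate_vesicles 3 likewise 0, whereas without Glutamate_secret 2 it was 13. With numbers 1 and 2 alone it was 1, and the median was 0.29.

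Among the genes named by p alone, Col18a1, a basement membrane collagen, was at 16.5, 10.9 and 37.2 CPM in Glutamate_vesicles and at 3.08 to 8.72 CPM in the pooled libraries, without overlap (log2 fold change 1.60, SE 0.52). Plau, the urokinase-type plasminogen activator, was at 2.49, 19.5 and 20.3 CPM against 1.42 to 9.03 CPM, with Glutamate_vesicles 1 inside the range of the others (1.36, SE 0.44). The integrins, receptors for matrix proteins, had 12 of 20 genes tested, with a median log2 fold change of 0.50. The median was 0.21 once the rRNA share was in the model and 0.18 with numbers 1 and 2 alone, and 0 members then had an unadjusted p below 0.05 and a higher value in either fit. Itga5, which pairs with integrin beta 1 as a fibronectin receptor, was at 30.9, 41.6 and 40.7 CPM against 9.96 to 24.6 CPM, without overlap. In the main fit it was the only integrin with an unadjusted p below 0.05 (8.33% of those tested, beside 1.81% of all genes). Its log2 fold change was 1.16 (SE 0.47, unadjusted p = 0.0255 in edgeR). Itgav, a subunit of receptors for vitronectin and fibronectin, had 0.83 (SE 0.43) and overlapping groups.

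The genes described next had lower values in Glutamate_vesicles. Spi1 encodes PU.1, the transcription factor required for microglia and other myeloid cells. It was at 0.299, 1.40 and 1.60 CPM in Glutamate_vesicles 1 to 3, at 2.99, 1.86 and 5.61 CPM in Glutamate_secret, and at 1.99, 5.07 and 10.2 CPM in Glutamate_BPC. All vesicle libraries were below all others, and the log2 fold change was -1.94 (SE 0.57, unadjusted p = 0.0037 in edgeR). Aif1, which encodes the microglial protein Iba1, was at 7.08, 8.63 and 11.5 CPM with vesicles, at 12.9, 13.2 and 106 CPM in Glutamate_secret, and at 23.9, 38.0 and 73.4 CPM in Glutamate_BPC. The groups did not overlap, and number 3 had the highest level in each of the 3 groups. The log2 fold change was -1.87 (SE 0.58), and it was -1.46 without Glutamate_vesicles 3. The log2 differences within numbers 1, 2 and 3 were -1.29, -1.36 and -2.92.

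Arhgdib, an inhibitor of small GTPases in blood-derived cells, was at 1.30, 3.61 and 3.65 CPM in Glutamate_vesicles and at 4.80 to 13.8 CPM in the pooled libraries (log2 fold change -1.48, SE 0.40). Fcgr3a, a receptor for immunoglobulin G, was at 0.897, 4.05 and 3.50 CPM against 4.16 to 15.6 CPM (-1.63, SE 0.56). Neither gene's groups overlapped. RT1-DMb, which helps to load peptides on class II molecules, Blnk, an adaptor of antigen receptor signalling, and Ptpn6, the phosphatase SHP-1 of blood cells, had log2 fold changes of -1.86 (SE 0.56), -1.58 (SE 0.49) and -1.11 (SE 0.37), and their groups overlapped. Lat2, an adaptor of immune receptors, was named after its values were seen because the likelihood-ratio test called it. It was at 0.199, 0.481 and 0.486 CPM with vesicles against 0.634 to 3.26 CPM, and its adjusted p was 0.71 in the quasi-likelihood test, 0.0483 in the likelihood-ratio test and 0.117 in DESeq2. These levels rest on few counts. In Glutamate, Lat2 was at 0.517 to 0.876 CPM, from 4 to 11 counts per library, and in Control at 0 to 0.323 CPM. The transcript row ENSRNOT00000107321 had 0 CPM in all 3 vesicle libraries and in Glutamate_secret 1, and 0.749 to 4.71 CPM in the other 5.

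The microglial marker list had all 14 genes tested. Aif1 and Tyrobp, a signalling adaptor of myeloid receptors, had an unadjusted p below 0.05 (14.3%, beside 1.23% of all genes lower), and 0 were higher. The median log2 fold change was -0.64, and 13 members had negative values. The members did not have like values. Those of C1qa, C1qb and C1qc, the chains of complement C1q, were -1.12, -1.07 and -0.95, and that of Trem2, a lipid receptor of microglia, was -1.20. Those of Tmem119, P2ry12, Csf1r and Cd68, which mark microglia or their lysosomes, were -0.07, 0.14, -0.10 and -0.03. In bulk RNA, fewer cells of a type and less RNA per cell cannot be told apart.

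The summed level of the microglial list was 127, 234 and 292 CPM in Glutamate_vesicles, 160, 285 and 897 CPM in Glutamate_secret, and 207, 514 and 694 CPM in Glutamate_BPC. Glutamate_vesicles 1 was lowest, Glutamate_vesicles 2 and 3 lay within the range of the pooled libraries, and Glutamate_secret 3 and Glutamate_BPC 3 were highest. The median was -0.15 against Glutamate_secret and -1.12 against Glutamate_BPC. Without Glutamate_secret 2 it was -0.12. The highest summed levels fell on the libraries with the highest rRNA shares among the 9, and the list's median was -0.73 once that share was in the model. Without the block, without Glutamate_vesicles 3 or with numbers 1 and 2 alone, 1 member had an unadjusted p below 0.05 and a lower value. In Glutamate alone the sum was 202 to 521 CPM and in Control 83.4 to 198 CPM, so that the vesicle libraries overlapped the untreated ones.

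**Figure D4:**
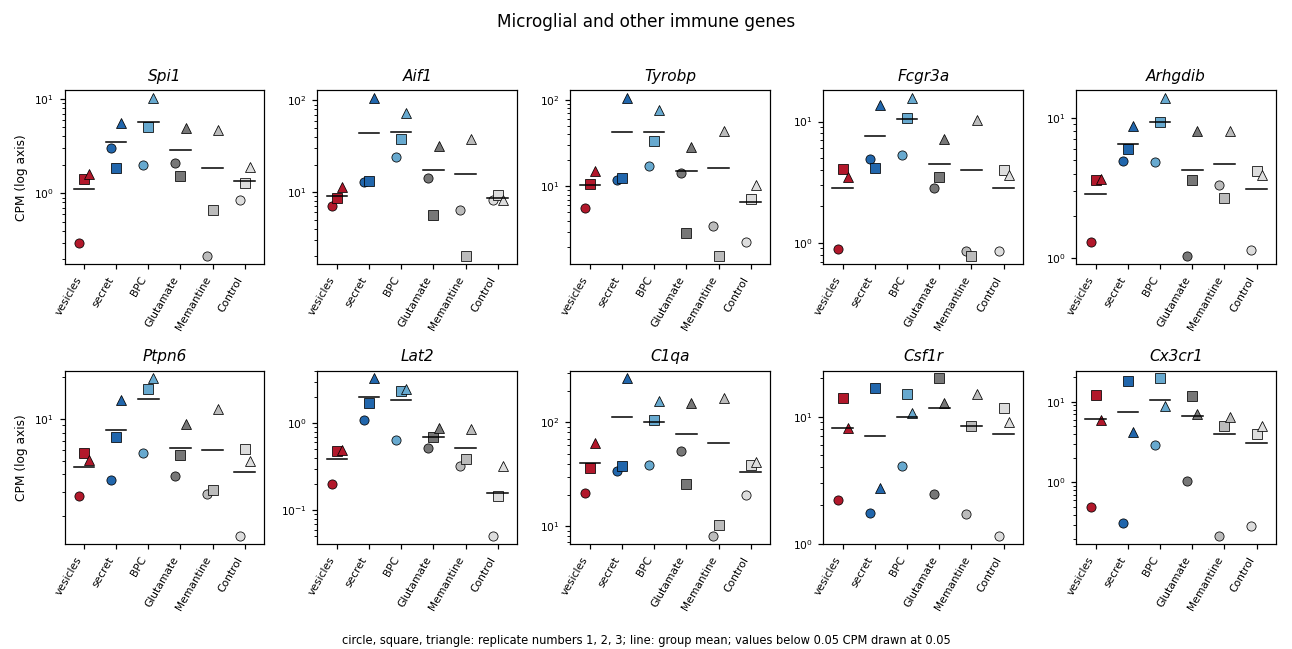
CPM on a log axis in all 18 libraries for 10 microglial and other immune genes, with Glutamate_vesicles in red, Glutamate_secret and Glutamate_BPC in blue and the groups without a preparation in grey. Symbols give the replicate number and lines the group mean. Spi1, Aif1, Fcgr3a, Arhgdib and Lat2 have all red points below the blue ones, whereas Csf1r and Cx3cr1 overlap.

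A few genes of neurons and lipid metabolism completed the lower side. Ppp1r1b, the phosphatase regulator DARPP-32, was at 8.97, 8.02 and 5.49 CPM in Glutamate_vesicles and at 9.20 to 49.1 CPM in the pooled libraries, without overlap (log2 fold change -1.24, SE 0.39). Its log2 differences within numbers 1, 2 and 3 were -0.94, -0.35 and -2.90, and it was -0.72 without Glutamate_vesicles 3. Penk, the precursor of enkephalins, and Calb1, the calcium buffer calbindin, had log2 fold changes of -0.86 (SE 0.28) and -0.80 (SE 0.27), both with overlapping groups. Lpl, lipoprotein lipase, and Selenom, a selenoprotein of the endoplasmic reticulum, had -0.94 (SE 0.33) and -1.67 (SE 0.57). Of 16 general neuronal markers, 0 had an unadjusted p below 0.05, and the summed neuronal level was 753 to 1201 CPM in Glutamate_vesicles, 648 to 1359 CPM in Glutamate_secret and 882 to 1361 CPM in Glutamate_BPC. In Control it was 2490 to 3485 CPM.

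Oligodendrocyte lineage markers had positive values throughout. All 13 were tested and had log2 fold changes above 0, where 52.4% of all genes did, and the median was 0.48. Enpp6, a marker of newly formed oligodendrocytes, had an unadjusted p below 0.05. It was at 2.39, 5.26 and 3.35 CPM in Glutamate_vesicles and at 0.181 to 4.29 CPM in the others, and its log2 fold change was 1.67 (SE 0.49). The groups overlapped. Without the replicate block 0 members of the list had an unadjusted p below 0.05, and with numbers 1 and 2 alone the median was 0.29. The summed level of the list was 1331 to 1747 CPM with vesicles, 1062 to 1631 CPM in Glutamate_secret and 1057 to 1472 CPM in Glutamate_BPC.

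**Figure D5:**
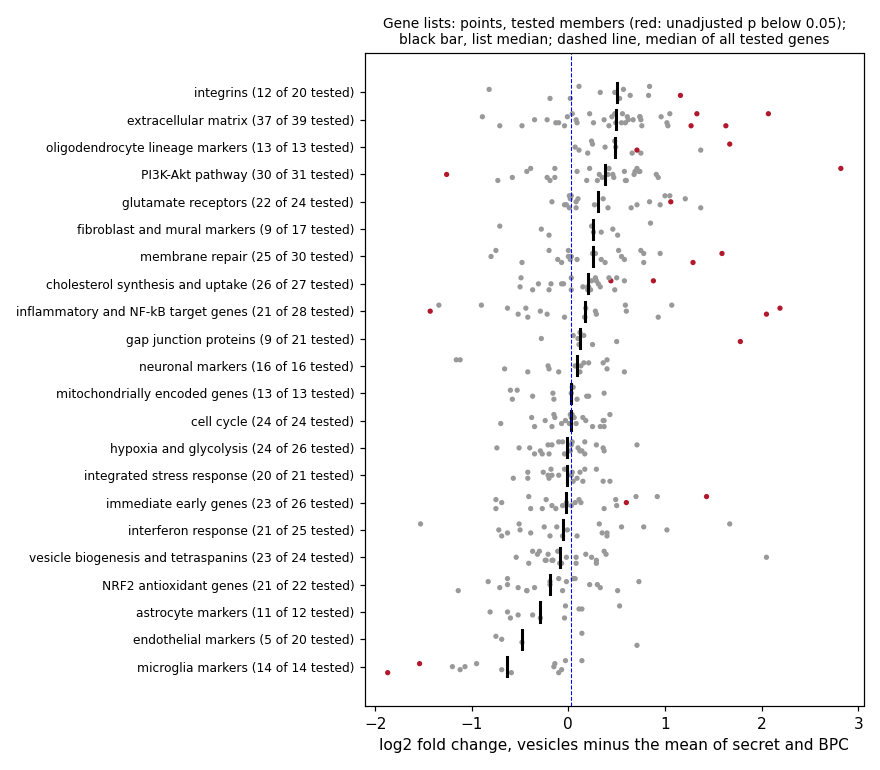
Log2 fold change between Glutamate_vesicles and the mean of Glutamate_secret and Glutamate_BPC (x axis) for the tested members of 22 gene lists (y axis), the ribosomal protein list left out. Red points have an unadjusted p below 0.05, black bars are list medians and the dashed line is the median of all genes, 0.03. The microglial list lies lowest with a median of -0.64, and the integrin, matrix and oligodendrocyte lists highest with 0.50, 0.49 and 0.48.

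The PI3K-Akt list, a growth factor pathway that promotes cell survival, had 30 of 31 genes tested and a median log2 fold change of 0.38. Its 2 members with an unadjusted p below 0.05 were the ligands Igf2, described above, and Igf1, which is 3.33% in each direction beside 1.81% higher and 1.23% lower among all genes. The median was 0.17 once the rRNA share was in the model and 0.16 with numbers 1 and 2 alone. Igf1, insulin-like growth factor 1, was at 10.6, 10.8 and 10.5 CPM in Glutamate_vesicles, at 14.2, 15.1 and 38.0 CPM in Glutamate_secret and at 21.2, 28.1 and 49.0 CPM in Glutamate_BPC. All vesicle libraries were below all others (log2 fold change -1.26, SE 0.45, unadjusted p = 0.0123 in edgeR). Thus the ligands differed in sign, and no kinase, phosphatase or adaptor of the list had an unadjusted p below 0.05.

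Among glutamate receptors, 22 of 24 were tested. Gria3, a subunit of AMPA receptors, had an unadjusted p below 0.05 (4.55%, beside 1.81% of all genes), with 11, 34.7 and 21.5 CPM in Glutamate_vesicles and 4.10 to 40.7 CPM in the others (log2 fold change 1.06, SE 0.42). The list had a median of 0.31, and 19 members had positive values. Of 23 immediate early genes, which neurons switch on with activity, Dusp4, a phosphatase of MAP kinases, and Jun, an AP-1 subunit, had an unadjusted p below 0.05 and a higher value (8.7%, beside 1.81% of all genes). Dusp4 had a log2 fold change of 1.43 (SE 0.55), Jun one of 0.60 (SE 0.25), and the median of the list was -0.02. Without the replicate block, 0 members of both lists had an unadjusted p below 0.05 and a higher value. The 26 tested genes of cholesterol synthesis and uptake had a median log2 fold change of 0.20, and 18 had positive values.

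In the remaining lists 0 members had an unadjusted p below 0.05 in the main fit. They were the astrocyte, fibroblast and mural, vesicle biogenesis, interferon, NRF2, integrated stress, hypoxia and glycolysis, cell cycle and mitochondrial lists, with medians between -0.29 for astrocyte markers and 0.26 for fibroblast and mural markers. The 23 tested genes of vesicle biogenesis, which include the tetraspanins by which vesicles are often recognised, had a median of -0.09. The ribosomal protein genes had a median of -0.64, with 71 of 72 values negative and 0 with an unadjusted p below 0.05. Their summed level was 35272 to 149886 CPM in Glutamate_vesicles, 37432 to 232547 CPM in Glutamate_secret and 65551 to 123542 CPM in Glutamate_BPC, and it was lowest in the libraries of number 2. The median was -0.33 once the rRNA share was in the model. The part of RNA quality in these differences was not tested.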

How the data were processed

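Messenger RNA of rat neuroglial cultures was sequenced in 18 libraries (6 groups of 3), of which 9 are compared here. The authors used Trimmomatic and Cutadapt for trimming, quantified the reads with Salmon against rat transcripts of Ensembl with the genome as decoy, and summed transcripts to genes with tximport. The submitters' processing notes also name STAR and the build rn6. The deposited values are expected counts, without scaling between libraries, and were rounded. The sources differ on the sequencing platform, and the sources used here do not state whether counting used strand, so that overlapping genes can share counts. No coordinates of rn6 are given, and promoter coordinates are those of GRCr8.

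Each library held 31463 rows, with 78 rows of ribosomal RNA. Genes were filtered with filterByExpr (minimum count 10, minimum total 15), which left 14398. Library sizes were scaled by TMM, and edgeR 4.0.16 in R 4.3.3 was fitted to all 18 libraries with 1 mean per group and the replicate number as block. The two-sided quasi-likelihood test was applied to Glutamate_vesicles minus the mean of Glutamate_secret and Glutamate_BPC, with Benjamini-Hochberg adjustment over all genes. CPM were taken at the TMM-scaled library size, and log2 CPM used a prior count of 2. DESeq2 1.42.0 was an alternative. The scripts were tested on simulated data.

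Named genes were the 12 higher and 12 lower genes with the smallest p among those with a gene symbol whose log2 CPM averaged 1 or more, Gja5 and Dysf, and the 2 members with the smallest p of each of 23 lists. The groups, lists and named genes were chosen with earlier results of these data known. Some named genes are not reported here. Nothing in the labels ties a replicate number to a shared culture, litter or day. The study's supplement removed a day effect before clustering its samples, without saying which libraries shared a day, and the p values measure the spread between these samples, which may be technical. No pair of libraries was a duplicate, since at most 4.13% of tested genes had equal counts.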

Additional observations from a re-analysis of the deposited data

Results flagged for a closer look

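Of 94 values examined over the 6 pooled libraries, 3 (3.19%) had a library far from the others by Dixon's test, where chance gives about 1 in 20. Cd81, a tetraspanin, was at 43.6 CPM in Glutamate_secret 2 and at 0 to 0.692 CPM in the other 5. It was also at 30.3 CPM in Glutamate_vesicles 2, at 22.8 CPM in Glutamate 2 and at 22.7 CPM in Memantine 2, and these 4 highest libraries all had replicate number 2. The summed level of the PI3K-Akt list was 1054 CPM in Glutamate_secret 2 and 770 to 851 CPM in the other 5. The summed level of the inflammatory and NF-kB list was 314 CPM in Glutamate_BPC 3 and 382 to 420 CPM in the other 5.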

How the results depend on the processing

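The quasi-likelihood test of edgeR gave 0 called genes in each of the 3 comparisons of Glutamate_vesicles with the main settings, and 0 whenever 1 of the 9 libraries was left out. Against the pooled libraries 437 genes had an unadjusted p below 0.05. The likelihood-ratio test called 4 genes against the pooled libraries. DESeq2 called 1 gene there and 1 gene, H19, against Glutamate_secret. With 1 library left out, the smallest adjusted p of the quasi-likelihood test against the pooled libraries was 0.0687, without Glutamate_vesicles 2. Genes with an unadjusted p below 0.05 and a fold change above 1.5 numbered 427 in the main fit. They numbered 693 with the likelihood-ratio test, 730 with DESeq2, 691 without a filter on low counts, 984 when only the 9 libraries were fitted and 173 with the rRNA share (log2) as covariate. Leaving out 1 library gave 80 to 1472. The RLE scaling, removal of rRNA rows and a stricter filter kept the count within 1.5 times.

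Without the replicate block the count was 67 (31 higher, 36 lower) and 0 genes were called, and the smallest adjusted p was 0.953. By the correlations given above, the numbers did not pair Glutamate_vesicles 3 with Glutamate_secret 3 or Glutamate_BPC 3, which had r = 0.56 between them. Of the 9 libraries, 7 correlated best with a library of their own number. With numbers 1 and 2 alone, an alternative added after the data were seen, the count was 66.

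Of the named genes, Csf1r turned its sign, from -0.10 to 0.08 without Glutamate_BPC 1 and to 0.29 without Glutamate_secret 2 (range over libraries left out -0.34 to 0.29). No other named gene changed sign under the alternatives run. The causes of these shifts were not tested. With 3 libraries a group, differences near the median SE could not be resolved.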
